A study of Capsella orientalis and Capsella grandiflora with 23 samples.

Results

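Reads from the endosperm of reciprocal hybrids between 2 accessions of Capsella orientalis were compared gene by gene between the accession alleles, in 2 replicate tables, called replicate 1 and replicate 2 here after the tables' numbers. A gene was a deposited gene interval, only SNPs inside annotated exons counted, and a gene entered a replicate when its SNPs held at least 20 reads in each of the 2 cross directions. Of 8844 gene intervals with any SNP, 6065 held an exonic SNP, 1231 passed in replicate 1, 2138 in replicate 2 and 1213 in both tables. The results below are about those 1213 genes.

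A hybrid cell carries the alleles of both parents in the same nucleus, under the same regulators and the same environment. A difference in expression between its alleles is therefore usually read as a difference in cis, in the sequence or chromatin of the gene copy itself. Endosperm, the tissue that feeds the embryo, inherits 2 maternal genomes and 1 paternal genome. Some of its genes are imprinted, so that the mother's or the father's copy is read more than this dosage gives, or is read alone. Reciprocal crosses separate these effects: an accession difference follows the accession when mother and father are exchanged, and a parental difference follows the parent. A wrong SNP call, a wrong allele assignment or an alignment that favours 1 allele would also follow the accession. None of these was tested here.

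C. orientalis is a self-fertilising relative of Arabidopsis. The series holds 23 samples of C. orientalis and its outcrossing relative C. grandiflora. The 8 samples used here are endosperm RNA of the crosses AxB and BxA between C. orientalis accessions A and B, each with 2 replicates that were sequenced in 2 runs. Emasculated flowers were pollinated by hand, and the endosperm of many seeds was pooled per replicate at 6 days after pollination, so a value is an average over seeds. The plants are accessions with no transgene or treatment named in the labels. The columns name neither the accession nor the run, so the accession that was the mother in direction 1 is called the first accession and its partner the second, and which of them is A or B cannot be told. That direction 1 had the same mother in both tables was taken from the design of 2 replicates of 1 reciprocal pair and from the positive relation between the tables described below. Whether direction 1 is AxB or BxA, and how the runs were joined, the sources used here do not say. The files do not pair gene intervals with gene names, so the genes are given by scaffold and interval, without roles, and endosperm identity was not checked against marker genes.

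The 4 cross directions held 432157 and 187220 exonic allele counts in replicate 1 and 512748 and 538785 in replicate 2. The mother contributed 61.5% and 66.4% of them in replicate 1 and 66.7% and 66.8% in replicate 2. Direction 1 of replicate 1 stood apart, with the lowest maternal share and the most exonic SNPs listed, 13225 against 8669 to 9643 in the others. It alone in its table listed 4811 of those SNPs, and the first accession held 51.9% of the 47606 counts there, against 62.6% at the SNPs listed in both directions of that table. The tables count a read once for every SNP it covers, so intervals below cover counting error only and are too narrow where SNPs lie close together.

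The same direction also held more reads of the allele that was rare elsewhere. In replicate 2, 25 genes had at least 95% of their reads from the first accession in both directions, and 33 genes had at least 95% from the second. Among the 33 genes, the first accession held a median of 5.52% of the reads in direction 1 of replicate 1, against 0% in direction 2 of replicate 1, 0.913% in direction 1 of replicate 2 and 0.610% in direction 2 of replicate 2. Among the 25 genes, the second accession held a median of 2.70%, 0%, 1.504% and 1.41% in the same order. The other allele exceeded 5% in 17 of the 33 genes and 6 of the 25 in direction 1 of replicate 1, and in 2 and 3 of them in direction 2 of that table. Replicate 2 chose these genes, so its own low shares are no result. The part of this library in the differences below is shown by repeating the test without it.

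**Figure D1:**
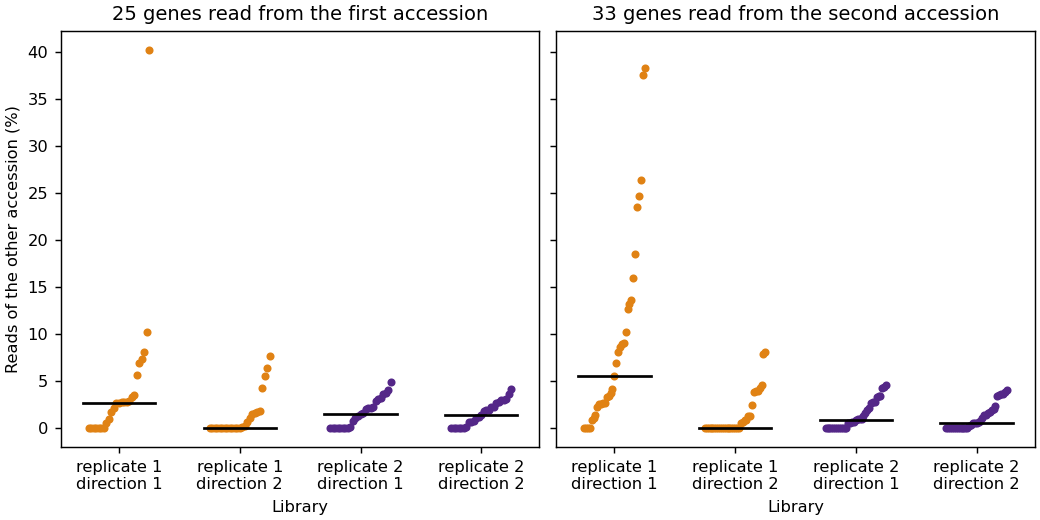
Percent of a gene's exonic reads from the other accession in each of the 4 cross directions, for the 25 genes (left) and 33 genes (right) that were at least 95% from one accession in both directions of replicate 2. Points are genes, ordered by value within a library, and black lines are medians. Direction 1 of replicate 1 reaches 40.2% and 38.2%, and the other libraries at most 8.16%.

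The accession difference of a gene was 0.5 times the log2 maternal to paternal ratio in direction 1 minus that in direction 2, with 0.5 added to each gene sum. It is positive where the first accession held more reads, a value of 1 is a 2-fold difference, and any parental effect that is equal in both directions cancels. Most genes differed little between the accessions. Over the 1213 genes, the median absolute difference was 0.51 in replicate 1 and 0.34 in replicate 2, and the mean of both tables was under 0.5 in size for 756 of them, 62.3%. A further 238 genes lay from 0.5 to 1, 102 from 1 to 2, 44 from 2 to 4 and 73 at 4 or more, which is 16-fold. The 73 genes with the widest differences were divided about evenly, 38 with the first accession higher and 35 with the second.

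The differences repeated where they were large. Over the 1213 genes, Pearson's r between the tables was 0.87 and Spearman's rho was 0.55, as a description across genes, which share accessions, SNP positions and annotation in both tables. The difference had the same sign in both tables for 822 genes, 67.8%, and the median gap between the tables was 0.43. The parental term computed from the same counts had an r of 0.61 and a rho of 0.32 between the tables, with an SD of 0.94 in replicate 1 and 0.92 in replicate 2, against 1.59 and 1.71 for the accession difference. The gap narrowed with depth, from a median of 0.71 in the genes with 94 to 279 reads over both tables, the lowest of 4 equal classes, to 0.26 in the class with 923 to 63870 reads. The median difference of the same genes was -0.14 in replicate 1 and -0.03 in replicate 2.

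Most genes with a 2-fold difference in one replicate lay on the same side in the other. Of the 1213 genes, 331 were at least 2-fold in replicate 1 and 214 in replicate 2. For 276 of the 331, replicate 2 was on the same side, and over the 331 the median size was 1.72 in replicate 1 against 1.11 toward that side in replicate 2. For 200 of the 214, replicate 1 was on the same side, and over the 214 the median size was 2.49 in replicate 2 against 2.34 toward that side in replicate 1. A smaller size in the replicate that did not choose the genes is what such a choice gives by itself. Of the 1213 genes, 171 (14.1%) were at least 2-fold on the same side in both tables, 84 with the first accession higher (6.92%) and 87 with the second higher (7.17%). After subtracting each table's median the count was 163, of which 85 had the first accession higher and 78 the second. Another 3 genes were 2-fold on opposite sides.

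edgeR's quasi-likelihood test over the 4 libraries, with library and parent of origin in the model, called 207 of the 1213 genes (17.1%) at a Benjamini-Hochberg adjusted p of 0.05. The first accession was higher in 97 of them (8.00%) and the second in 110 (9.07%). At an unadjusted p of 0.05 the test passed 326 genes. Without direction 1 of replicate 1 it called 232 genes, 122 with the first and 110 with the second accession higher. Without direction 1 of replicate 2 it called 174 with the second higher, over 1.5 times as many, and 108 with the first. All 207 called genes lay on the same side in both tables, although both tables entered the fit and so this is no independent check. Of the called genes, 153 were also 2-fold in both tables (12.6% of the 1213), 77 with the first and 76 with the second accession higher, and 54 were under 2-fold in a table. The other 18 genes that were 2-fold in both tables were not called. The 153 genes had a median difference of 3.88 where the first accession was higher, with a range of 1.16 to 9.64, and a median size of 3.75 where the second was higher, with a range of 1.19 to 7.67. Nothing in the labels says that the replicates came from separate plants, so the p-values measure the spread between these 4 libraries, which may be technical.

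**Figure D2:**
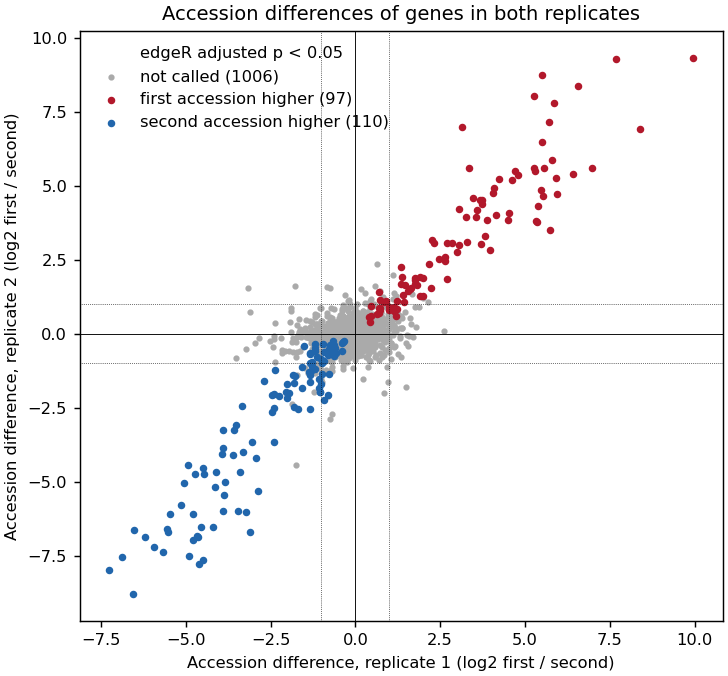
Accession difference (log2 first over second accession) of the 1213 genes in replicate 1 (horizontal) and replicate 2 (vertical), with dotted lines at a 2-fold difference. The 97 genes called with the first accession higher (red) and the 110 called with the second higher (blue) run along the diagonal, and the 1006 genes not called (grey) form a cloud around 0 that is wider in replicate 1.

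Within a single table, counting error alone gave many more calls. Fisher's exact test on the 2 directions called 562 of 1231 genes (45.7%) in replicate 1, 217 with the first and 345 with the second accession higher. In replicate 2 it called 835 of 2138 genes (39.1%), 403 and 432. That test compares the reads of 2 libraries and has no replicate in it, and reads counted at several SNPs make its p-values too small.

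The gene with the widest difference toward the second accession, among called genes with at least 2 exonic SNPs in each table, was a 309 bp interval on the minus strand of scaffold 5 (9605695 to 9606003). It had 5 first-accession and 189 second-accession reads in direction 1 of replicate 1, and 0 and 129 in direction 2. In replicate 2 it had 0 and 333 reads in direction 1 and 1 and 436 in direction 2. The second accession thus held nearly all reads as mother and as father. The difference was -6.56 in replicate 1 and -8.78 in replicate 2, and edgeR gave a log2 difference of -7.73 ± 0.57 (SE, 4 libraries, adjusted p = 4.54e-05). Its 2 SNPs were neighbouring bases, so the reads at them are largely the same reads. In direction 2 of replicate 1, the 0 of 129 reads allow a first-accession share of up to 2.33%.

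The second gene on that side was a 3575 bp interval on the plus strand of scaffold 8 (8458531 to 8462105), with 4464 reads. First-accession reads numbered 39 of 1025 in direction 1 of replicate 1, or 3.80% (95% Wilson interval 2.80 to 5.16%). They numbered 3 of 521 in direction 2, 8 of 1449 in direction 1 of replicate 2 and 11 of 1469 in direction 2. The share was highest in direction 1 of replicate 1 and under 1% in the other libraries. The difference was -5.93 in replicate 1 and -7.20 in replicate 2, and the edgeR difference was -6.44 ± 0.41 (adjusted p = 2.54e-05). Both of its SNPs were again adjacent bases of 1 exon.

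Toward the first accession, the widest difference among called genes with as many SNPs was in an 1186 bp interval on the plus strand of scaffold 1 (19089857 to 19091042), with 4 exonic SNPs in 2 exons. It held 74 first-accession and 1 second-accession reads in direction 1 of replicate 1, and 22 and 0 in direction 2, where a count of 0 allows up to 13.6%. Replicate 2 had 165 and 12 reads in direction 1 and 89 and 0 in direction 2. The first accession led in every library, and the largest second-accession share was 6.78%. The difference was 5.56 and 5.61 in the tables and 6.71 ± 0.71 in edgeR (adjusted p = 0.000588). None of its SNPs reached 20 reads in every direction, so single SNPs could not be compared. Where an allele had 0 reads, the size of a difference depends on the small counts added before taking logs.

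The next gene on that side was a 2221 bp interval on the minus strand of scaffold 6 (7573428 to 7575648). Its first-accession and second-accession reads were 168 and 10, then 110 and 6, in directions 1 and 2 of replicate 1, and 298 and 19, then 351 and 7, in replicate 2. The shares of the first accession lay between 94.0% and 98.0% in all 4 libraries, whichever parent carried it. The difference was 4.05 and 4.74, and 4.50 ± 0.29 in edgeR (adjusted p = 2.54e-05). Its 2 SNPs, 60 bp apart in 1 exon, were at 5.91 and 3.87 as means of both tables.

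The other 12 genes chosen by size, 6 on each side, had smaller or less deeply read differences. Only called genes that were 2-fold on the same side in both tables could be chosen. That their gene sums repeat is therefore no result. With the first accession higher they had 141 to 4392 reads and edgeR differences of 2.74 to 3.93. With the second higher they had 121 to 1190 reads and edgeR differences of -6.63 to -5.56. On the second side, direction 1 of replicate 1 had the highest first-accession share in 5 of these 6 genes, reaching 24.7% in a gene of scaffold 6 whose other shares were 0%, 2.67% and 0%. For the gene of scaffold 6 with 21 SNPs in replicate 1, the share was highest in direction 2 of that table, 4.29% against 3.49% in direction 1. On the first side, the most-read of the 12, a gene of scaffold 6 with 4392 reads, had SNPs that disagreed in sign. Its 4 deeply read SNPs were at 3.65, 2.18, 3.11 and -1.62 as means of both tables, the last 2 of them 6 bp apart.

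**Figure D3:**
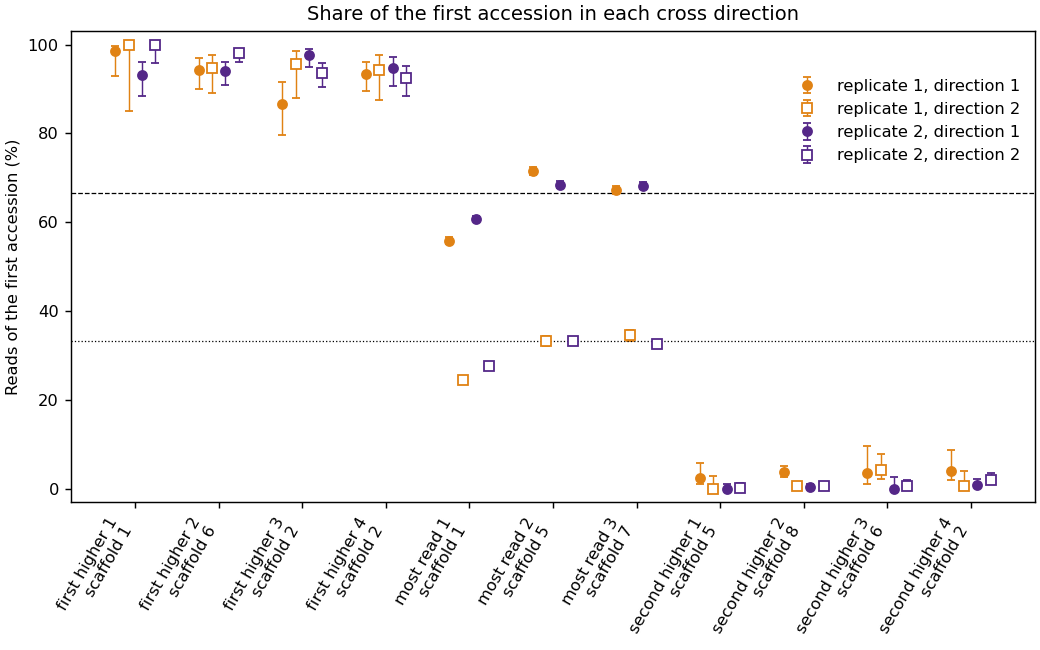
Percent of exonic reads from the first accession in each cross direction, for the 4 genes with the widest called differences on each side, among genes with at least 2 exonic SNPs in each table, and the 3 most-read genes. Bars are 95% Wilson intervals (counting error only), and the horizontal lines mark the shares that a dosage of 2 maternal genomes to 1 paternal genome gives in direction 1 (dashed) and direction 2 (dotted). At the genes on either side both directions lie near the same end of the scale, which follows from their choice by size. At the most-read genes the directions separate.

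At the 3 most-read genes, the share of the first accession changed with the parent that carried it. The leading one, a 29-SNP gene on scaffold 1 (10353262 to 10355707, minus strand) with 63870 reads, had first-accession shares of 55.9% and 60.9% in direction 1 of replicates 1 and 2 and 24.5% and 27.8% in direction 2. Its difference was -0.64 and -0.37, and edgeR called it at -0.51 ± 0.07 (adjusted p = 0.000814). All of its 27 deeply read SNPs were on the side of the second accession, from -1.25 to -0.17. Its SNPs outside exons gave -0.67 in replicate 1 and 0.88 in replicate 2. A gene on scaffold 5 (7381651 to 7383940, minus strand, 44027 reads) was at 0.17 and 0.06, with an edgeR difference of 0.11 ± 0.06 (adjusted p = 0.246). A gene on scaffold 7 (4731422 to 4732126, plus strand, 41170 reads) was at 0.06 and 0.03, with 0.05 ± 0.05 (adjusted p = 0.670).

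Large differences were most frequent in genes with a single exonic SNP. Of 557 genes with 1 SNP in the table that had fewer, 106 (19.0%) were 2-fold on the same side in both tables and 59 (10.6%) were over 16-fold in the mean. Of 420 genes with 2 or 3 SNPs, 43 (10.2%) repeated and 10 (2.38%) were over 16-fold. Among 106 genes with 9 or more SNPs, 9 repeated (8.49%) and 1 was over 16-fold (0.943%). The median absolute difference changed little over the same classes, between 0.34 and 0.44. The median read number rose from 368 to 1867, but a read counts once for every SNP it covers, so this number rises with SNP number by itself. edgeR called 20.5% of the 1-SNP genes, 11.7% of those with 2 or 3, 13.1% of those with 4 to 8 and 25.5% of those with 9 or more. Of the 30 genes that were at least 95% from one accession in all 4 libraries, 16 from the first and 14 from the second, 24 had 1 exonic SNP in both tables. How many of all 1213 genes had 1 SNP in both tables was not counted, and the 557 genes above are a wider class.

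Single SNPs repeated between the tables about as well as genes did. The 1640 exonic SNPs with at least 20 reads in every direction of both tables, in 995 genes, had an r of 0.88 between tables and a median gap of 0.45. The relation between the SNPs of a gene varied with their distance. For 363 pairs of consecutive SNPs up to 100 bp apart, r was 0.71, the side was the same in 80.7% and the median gap was 0.22. For 144 pairs 100 to 500 bp apart, r was -0.05 and the side was the same in 61.1%. That class includes a pair of scaffold 3, 126 bp apart, at -7.07 and 9.73. A pair so far from 0 weighs heavily in r, and r without it was not computed. For 138 pairs over 500 bp apart, r was 0.13 and the side was the same in 58.7%. Pairs that lie close share many reads and those farther apart share few, the genes differ between the distance classes, and how far shared reads set these values was not tested.

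**Figure D4:**
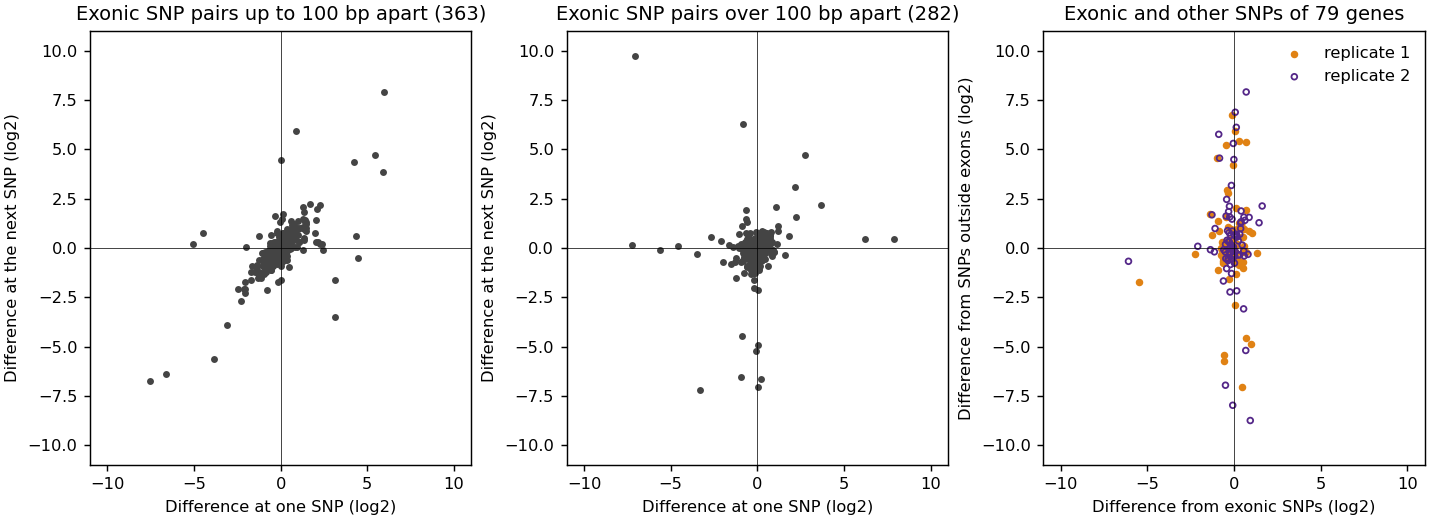
Accession difference (log2, mean of both tables) at consecutive deeply read exonic SNPs of a gene, for 363 pairs up to 100 bp apart (left) and 282 pairs over 100 bp apart (middle), and the difference from exonic SNPs against that from other SNPs of the same 79 genes (right; replicate 1 filled, replicate 2 open). Close pairs follow the diagonal, and the other panels show values spread along the axes, with one SNP or class far from 0 and its partner near 0.

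SNPs inside a gene interval but outside its annotated exons gave a further comparison that the choice of genes did not use. In replicate 1, 80 of the 1213 genes also had at least 20 such reads in each direction, and the difference from those SNPs had an r of 0.04 with the exonic difference, on the same side in 53.8%. In replicate 2 there were 154 such genes, with an r of -0.03 and the same side in 48.1%. The genes with a repeated exonic difference were few here: 4 in replicate 1, of which 2 had the same side outside exons, and 9 in replicate 2, of which 3 did. In the 79 genes with both classes in both tables, r between the tables was 0.93 for the outside SNPs and 0.86 for the exonic SNPs. Each class thus repeated on its own while the classes did not follow each other. The spread was wider outside exons, with an SD of 2.33 in replicate 1 and 2.88 in replicate 2, against 0.87 and 0.96 inside. Unannotated exons, unspliced RNA, overlapping transcripts and wrong SNP calls or allele assignments cannot be told apart in these SNPs.

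Few genes could show whether a repeated difference ran through the whole gene. Of the 171 repeated genes, 151 had fewer than 2 exonic SNPs with 20 reads in every direction of both tables. In the other 20, all such SNPs lay on one side in 11, and all were at least 2-fold on that side in 8. The range between the SNPs of a gene had a median of 3.23 in these 20 genes, and was at least 2 in 12 of them. The other 202 genes with as many deeply read SNPs had a median range of 0.54. Since a gene sum of 2-fold or more can come from 1 SNP far from 0, a wide range in the repeated genes follows in part from how they were chosen.

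The 8 genes in which every deeply read SNP was 2-fold on one side had 2 such SNPs each. In 5 of them the SNPs were 1 to 60 bp apart, so they share reads. These include the genes of scaffolds 5, 8 and 6 given by interval above, and a gene of scaffold 7 with SNPs at 5.43 and 4.72. In the remaining 3 the SNPs were farther apart. A gene of scaffold 2 had its SNPs 1534 bp apart in 2 exons, at 2.76 and 4.73, with a gene difference of 3.87 in replicate 1 and 3.84 in replicate 2. First-accession and second-accession reads of that gene were 214 and 15, 84 and 5, 181 and 10, and 231 and 19 in directions 1 and 2 of replicate 1 and then of replicate 2. The first accession held 92.4% to 94.8% of them, with an edgeR difference of 3.87 ± 0.25 (adjusted p = 2.54e-05). A gene of scaffold 6 had SNPs 177 bp apart at -3.34 and -7.23, and a gene of scaffold 4 had SNPs 187 bp apart at 2.21 and 1.56.

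In the other 9 of the 20 repeated genes the SNPs disagreed in sign. The plainest case was a gene of scaffold 3 with 2 SNPs 126 bp apart in 1 exon. At the upstream SNP the first accession had 1, 0, 3 and 0 reads in directions 1 and 2 of replicate 1 and then of replicate 2, and the second accession had 150, 86, 203 and 160. At the downstream SNP the first accession had 433, 283, 503 and 523 reads and the second accession had 0 in each library. The reads at the 2 positions were thus assigned to opposite accessions in all 4 libraries, at -7.07 and 9.73, and whether the SNP calls and the allele assignment are right at such positions was not tested. The gene sum was 1.62 in replicate 1 and 1.51 in replicate 2 and passed edgeR's test (1.57 ± 0.14, adjusted p = 0.000139). With its most-read SNP left out, the same gene was at -8.27.

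A gene of scaffold 1 with SNPs 1217 bp apart in 2 exons showed the more frequent form. At the first SNP, first-accession and second-accession reads were 72 and 36 in direction 1 and 14 and 34 in direction 2 of replicate 1, and 146 and 62, then 65 and 116, in replicate 2. Both accessions were read there, the mother's allele more, and the difference was 0.03. At the second SNP the reads were 4 and 190, then 2 and 131, in replicate 1, and 0 and 318, then 1 and 340, in replicate 2, and the difference was -7.07. The gene as a whole was called at -2.25 ± 0.19 (adjusted p = 9.66e-05). Another gene of scaffold 1 had SNPs 820 bp apart at -7.22 and 0.13, and a gene of scaffold 2 with 5695 reads had 3 SNPs within 1 exon, from -4.94 to 0.01.

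**Figure D5:**
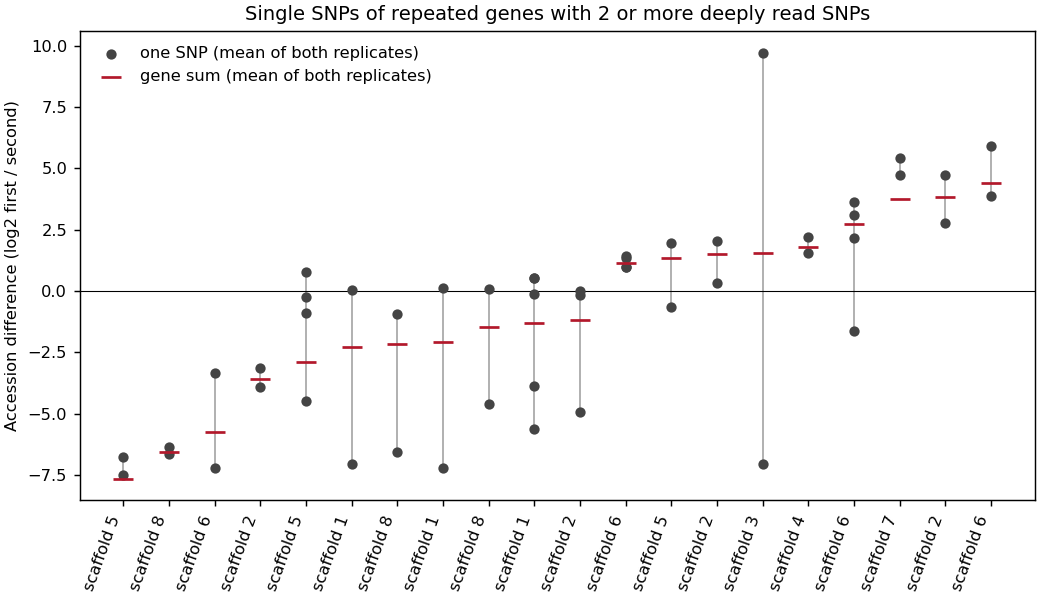
Accession difference (log2, mean of both tables) at each deeply read exonic SNP (points) and for the gene sum (red bars) in the 20 repeated genes with 2 or more such SNPs, ordered by gene sum and labelled by scaffold. In 9 genes the points lie on both sides of 0, and in the gene of scaffold 3 they span 16.8.

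With the most-read SNP of each gene left out, 345 genes still had 20 reads in each direction. Of these, 34 (9.86%) were 2-fold on the same side in both tables, edgeR called 53 (15.4%), and r between the tables was 0.78. Among the 222 genes with at least 2 deeply read SNPs, 20 (9.01%) were 2-fold in both tables and edgeR called 49 (22.1%). By the median over the deeply read SNPs of each gene, 152 of the 995 genes with such a SNP (15.3%) were 2-fold in both tables. Only 222 of the 995 had 2 or more such SNPs, and in the others the median is the value of 1 SNP.

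Of the 10 called genes chosen by read number, 5 on each side, the 5 with the first accession higher had differences of 1.10 to 1.91 in the tables. The most-read, a gene of scaffold 2 with 6902 reads, had first-accession shares of 77.6% and 80.8% in direction 1 of replicates 1 and 2 and 65.5% and 70.5% in direction 2. Its edgeR difference was 1.52 ± 0.11 (adjusted p = 4.54e-05), from deeply read SNPs at 2.03 and 0.31. With its most-read SNP left out it was at 0.67 and was not called (adjusted p = 0.0662). A gene of scaffold 6 with 2367 reads had 4 SNPs within 1 exon on one side, from 0.96 to 1.45, and an edgeR difference of 1.16 ± 0.15 (adjusted p = 0.000859). Consecutive SNPs of that gene were 3 or 6 bp apart, so the reads at them are largely the same reads. A gene of scaffold 2 with the second accession higher at -1.37 ± 0.18 (adjusted p = 0.00103) had uneven depth: direction 1 of replicate 1 held 1636 of its 1879 reads, and the others held 76, 98 and 69. It was at -1.34 in replicate 1 and -1.39 in replicate 2, and without the deep library it was called at -1.45 (adjusted p = 0.0131). With no replicate block its adjusted p was 0.807, and with only the SNPs listed in all 4 directions it was 0.0511.

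Repeated differences were spread over the genome. The 8 main scaffolds held 1210 of the 1213 genes, and the share that was 2-fold in both tables ran from 11.2% on scaffold 6 (22 of 196 genes) to 19.3% on scaffold 4 (23 of 119). Each of the 8 held genes of either side, and scaffold 1 had 16 of each. For 207 neighbour pairs up to 5000 bp apart, r over pairs was -0.07. In 6 of those pairs both genes repeated, 2 of them on the same side. For the 231 pairs between 5000 and 20000 bp apart, r was 0.13, and both genes repeated in 4 pairs, 3 of them on the same side. For the 443 pairs between 20000 and 100000 bp apart, r was 0.04, and both genes repeated in 7 pairs, 4 of them on the same side. The repeated genes had a median interval length of 2505 bp, against 2824 bp over all 1213 genes.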

How the data were processed

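Reads of hybrid C. orientalis endosperm RNA (TruSeq RNA kit and RNAqueous extraction, per the labels' protocols) were deposited by the authors as 2 tables of counts. Per the file headers, each row is a SNP with a maternal and a paternal read count in each of 2 cross directions, its exon and its gene interval, and the deposited total count equalled the allele counts summed over the gene's SNPs for 100% of totals. Per the submitters' processing notes, Trimmomatic, Bismark and Bowtie2 were used, with no roles stated. How RNA reads were aligned, how SNPs were called, the build, the annotation and the accession behind the reference were not given in the sources used here. In each table, 21 other columns of values were not used. Tables of C. grandiflora were not used here. The 16619 SNPs in both tables included 6791 with at least 20 reads in replicate 1, of which 0 had all 4 counts identical, so the tables were kept as separate replicates.

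Exonic counts were summed per gene, taking the interval listed first. A SNP not listed in a direction counted as 0 reads there, so the directions of a gene can rest on different SNPs. With only SNPs listed in all 4 directions, edgeR called 209 of 1199 genes. Of the named genes tested with this setting, 29 kept their result and 1 lost its call. A gene of scaffold 2 (10333816 to 10336152) that kept its call was at 6.56 there, against 3.93 in the main fit. edgeR 4.0.16 (R 4.3.3) was fitted to 8 allele columns, a maternal and a paternal one for each library, with the library as a block and terms for parent and accession. The main design holds this block since the alleles of a gene share a library. Library sizes were the library's total for both alleles, and 2 residual degrees of freedom were left per gene, moderated over genes. Calls were Benjamini-Hochberg adjusted p-values at 0.05. DESeq2 1.42.0 was an alternative, and Fisher's exact test used scipy 1.17.1. The fit was tested on simulated data. SEs are edgeR differences divided by the square root of F.

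Named genes were the 8 widest differences per side among called genes that were 2-fold on one side in both tables with at least 2 exonic SNPs per table, the 5 most read per side under those conditions, genes 2-fold on opposite sides, and the 3 most read of all. Other genes and single SNPs were chosen after their values were seen. Members and lists were chosen with earlier results of these data known. Planned marker and pathway lists could not be matched, since gene names are not paired with intervals in the files. Depth was 187220 to 538785 exonic counts per library, and 95% Wilson intervals and the limits set by a count of 0 (3 counts) cover counting error only.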

Additional observations from a re-analysis of the deposited data

Results flagged for a closer look

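In 3 genes the difference was at least 2-fold toward opposite accessions in the 2 tables. The mother's allele held more reads than the father's in every library at all 3, and whether the replicates differ was not tested. Each gene had 0 reads of the father's allele in at least 1 library, where the size of a difference depends on the 0.5 added. edgeR called none of the 3 over both tables.

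The gene of scaffold 2 (831700 to 834459, minus strand, 466 reads) was at -1.79 in replicate 1 and 1.61 in replicate 2. Its first-accession and second-accession reads were 94 and 17, then 0 and 32, in replicate 1, and 209 and 0, then 2 and 112, in replicate 2. The edgeR difference was -0.93 ± 1.00 (adjusted p = 0.631), and -1.80 (adjusted p = 0.0218) without direction 1 of replicate 2. The gene of scaffold 4 (518785 to 520303, plus strand, 448 reads) was at -3.17 in replicate 1 and 1.56 in replicate 2. It had 53 and 31, then 0 and 68, reads in replicate 1, and 80 and 3, then 58 and 155, in replicate 2, with an edgeR adjusted p of 0.913. The gene of scaffold 3 (3770255 to 3770896, minus strand, 422 reads) was at 1.48 in replicate 1 and -1.79 in replicate 2. It had 66 and 0, then 3 and 59, reads in replicate 1, and 124 and 4, then 0 and 166, in replicate 2, with an edgeR adjusted p of 0.933.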

How the results depend on the processing

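Counts are given as all genes, then those with the first and the second accession higher. With at least 50 reads per direction, edgeR called 128 (59 and 69) of 581 genes tested, or 22.0%. It called 410 (184 and 226) of 3587 with at least 1 read, or 11.4%. With no parent term it called 100 (53 and 47) of 1213, or 8.24%. In alternatives chosen after seeing the data, it called 53 (20 and 33) of 345 genes with the most-read SNP left out. It called 49 (22 and 27) of the 222 genes with 2 or more deeply read SNPs. With SNPs outside exons added, edgeR called 305 (153 and 152) of 1356 genes, or 22.5%. Leaving out 1 direction at a time gave 158 to 282 (78 to 122 and 80 to 174). With no replicate block, 163 genes were called (82 and 81), and DESeq2 called 213, of which 205 were among the 207. The 2-fold count was 300 (142 and 158) of 1889 genes with at least 10 reads, or 15.9%. It was 73 (39 and 34) of 581 with 50, or 12.6%, and 726 (338 and 388) of 3587 with 1, or 20.2%. With the most-read SNP left out it was 34 (12 and 22) of 345. In the 222 genes with 2 or more deeply read SNPs it was 20 (9 and 11). At a 4-fold threshold 109 genes were past it, 52 of them with the second accession higher. With SNPs outside exons added, 247 (128 and 119) of 1356 genes were 2-fold, or 18.2%. With 1 table left out the counts were 214 to 331 (106 to 138 and 108 to 193), and no test was possible, as no residual degrees of freedom remained. Pearson's r was 0.93 with at least 50 reads and 0.78 with the most-read SNP left out. With that SNP left out, 3 named genes changed sign: those of scaffold 3 (-8.27, adjusted p = 1.93e-08), scaffold 5 (-0.49, adjusted p = 0.541) and scaffold 1 (0.0489, adjusted p = 0.963). With it left out, 1 other named gene, of scaffold 2, lost its call (0.67, adjusted p = 0.0662). A further 18 named genes kept their result, and the rest were not among the genes tested with this setting. With no parent term, 11 named genes lost their call. Of the 32 named genes, those 2-fold on opposite sides and the most-read genes of scaffolds 5 and 7 had no call to lose. A 4-library design and low paternal counts limit small differences, and the cause of these changes was not tested.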
